A study of Mus musculus with 8 samples.

Results

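Arginine metabolism in RAW 264.7 cells is described here through 6 genes: the arginine transporter gene Slc7a2, the inducible nitric oxide synthase gene Nos2, the arginase genes Arg1 and Arg2, the argininosuccinate synthase gene Ass1 and the ornithine decarboxylase gene Odc1. A gene was included where a probe that is not a control carries its name or that of its transcript. All 6 genes had a probe, 7 probes in all with 16 spots on each array, and 5 of the 6 were measured above background on enough arrays to be tested among 15275 genes. Slc7a2 was not.

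RAW 264.7 is a mouse macrophage-like cell line that originated from BALB/c mice. The treated cells had spent 6 hours with 1 of 3 bacteria used as probiotics, namely *Lactobacillus acidophilus*, the spore-former *Bacillus clausii* and *Bifidobacterium bifidum*, at a multiplicity of infection of 1, and the untreated cells were matched to them in time. Each two-colour array carried RNA of treated cells labelled with Cy5 beside RNA of time-matched untreated cells labelled with Cy3. *L. acidophilus* had 2 arrays, and *B. clausii* and *B. bifidum* had 3 each, and the dyes were never swapped, so an unequal uptake of the dyes by a probe stays in its ratio. The labels do not say that arrays came from separate cultures, so p-values speak only of how these arrays vary, and that variation may be technical. Ratios below are log2 of treated over untreated signal, and levels are log2 intensities normalised between arrays.

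The arrays lay on 2 slides. Slide 1 held both *L. acidophilus* arrays and replicate 3 of *B. clausii* and of *B. bifidum*, and slide 2 held replicates 1 and 2 of the last 2 strains. Slide 1, read with an extended scanner range, had no saturated probe, whereas 75 to 106 probes were saturated on each slide 2 array. *B. clausii* replicate 3 had 12514 probes well above background in either channel, against 21453 to 26453 on the other 7 arrays, and its repeated spots had a median coefficient of variation of 42.7% in Cy5 and 43.5% in Cy3. Across all genes, which are not independent replicates, ratios of the same strain on different slides correlated at r = 0.0087 to 0.014 in 4 pairs of arrays, and ratios of different strains on the same slide at r = 0.29 to 0.58 in 9 pairs. Values are therefore given array by array, and tests within slide 2 follow those over all arrays, since *B. clausii* and *B. bifidum* have more than 1 array on slide 2 only. All 8 macrophage markers with a probe, among them Adgre1, Csf1r and Lyz2, were above background in untreated cells on both slides.

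Macrophages divide arginine between opposing uses. Slc7a2 brings arginine into the cell, Nos2 converts it into nitric oxide and citrulline, and Ass1 starts the conversion of citrulline back into arginine. Arg1 in the cytosol and Arg2 in mitochondria split arginine into urea and ornithine instead, and Odc1 turns ornithine into putrescine, the first of the polyamines. In mouse macrophages Nos2 is the textbook gene of classical activation by bacterial products and interferon gamma, and Arg1 that of alternative activation by interleukin 4.

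Promoter sequence was at hand for Ass1 and Odc1 alone, and is shown for that reason. They were also the only measured members whose ratios passed a test. Against untreated cells, the unsaturated Odc1 probe described below passed with no strain over all arrays. It passed with *B. clausii* only, and there only with the slide as a term or within slide 2. Each stretch is the 250 bases before the RefSeq start on the plus strand of GRCm38.p6, printed 5′ to 3′ in lower case, with E-boxes in capitals. The Ass1 stretch is chr2:31470020-31470269 and the Odc1 stretch is chr12:17544623-17544872.
Ass1: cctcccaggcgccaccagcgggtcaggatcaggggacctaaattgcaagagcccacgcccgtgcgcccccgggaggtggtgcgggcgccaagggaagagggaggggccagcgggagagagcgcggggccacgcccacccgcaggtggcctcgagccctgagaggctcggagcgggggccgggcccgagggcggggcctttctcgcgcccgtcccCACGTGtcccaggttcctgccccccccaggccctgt
Odc1: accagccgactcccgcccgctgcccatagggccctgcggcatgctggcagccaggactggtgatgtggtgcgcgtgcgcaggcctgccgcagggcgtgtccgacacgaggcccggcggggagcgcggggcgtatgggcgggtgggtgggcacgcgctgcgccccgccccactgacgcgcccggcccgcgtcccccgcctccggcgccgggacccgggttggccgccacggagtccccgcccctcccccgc
The capitals mark the E-box CACGTG, found once in Ass1 and not in Odc1. This E-box was present in 6.02% of all 32851 windows of this length. Neither stretch held the TATA box TATAA (22.8% of windows), the gamma-activated site TTCNNNGAA (7.02%), the cyclic AMP response element TGACGTCA (1.55%) or the nuclear factor kappa B element (7.25%), each searched on both strands. Both stretches were rich in G and C, with 75.6% in Ass1 and 80% in Odc1, above the content of 96.4% and 98.8% of the windows. A match or its lack describes these letters in this window only.

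The comparison of each strain with untreated cells asked whether 6 hours with the bacterium changed transcript levels. The transporter gene Slc7a2 was not well above background in either channel on any array. Its ratios ranged from −0.27 to 0.18 over the 8 arrays, and they rest on background signal only.

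Nos2 showed no change that this assay could detect with any strain. Its ratios were 0.04 and 0.11 with *L. acidophilus*, 0.02, 0.01 and −0.01 with *B. clausii*, and 0.02, 0.0028 and 0.13 with *B. bifidum*, replicates 1 to 3 in each list. All 8 values lie within 0.13 of 0, and the strains overlap. The mean ratio was 0.07 ± 0.08 (SE, n = 2, 95% interval −0.10 to 0.25, adjusted p = 0.871 by limma) with *L. acidophilus*, 0.01 ± 0.06 (n = 3, −0.14 to 0.15, adjusted p = 0.954) with *B. clausii* and 0.05 ± 0.06 (n = 3, −0.09 to 0.19, adjusted p = 0.731) with *B. bifidum*. In bulk RNA of this kind, fewer cells that express a gene and less of its RNA per cell cannot be told apart.

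The Nos2 probe was printed 10 times on each array, which shows the error within an array. The spots of *B. bifidum* replicate 3 ran from −0.01 to 0.34 around a median of 0.10, with 9 of 10 above 0. Those of *L. acidophilus* replicate 2 ran from −0.04 to 0.22, also around 0.10 and with 9 of 10 above 0. Those of *B. clausii* replicate 1 ran from −0.26 to 0.39, with 4 of 9 used spots above 0. The spots of every array lie on both sides of 0. On slide 1, 38 of 40 Nos2 spots were well above background in Cy5 and 35 of 40 in Cy3, and on slide 2, 22 of 40 in Cy5 and 31 of 40 in Cy3. An offset of 50 is added to every signal, which by construction draws ratios of dim spots towards 0. With the scanner's own processed signals, which carry no such offset, the 4 slide 2 ratios were 0.09 and 0.23 with *B. clausii* and 0.21 and −0.05 with *B. bifidum*.

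**Figure D1:**
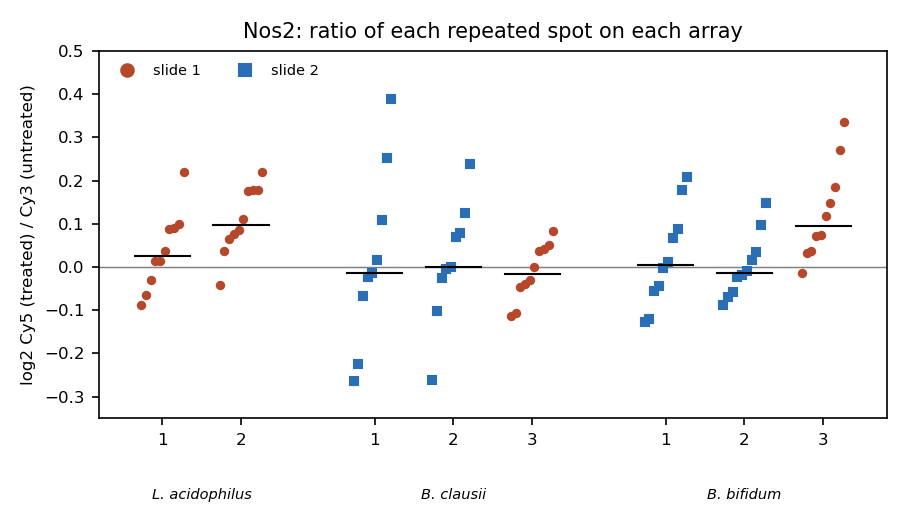
Log2 ratio of treated (Cy5) over untreated (Cy3) signal for each repeated Nos2 spot, by strain and replicate; circles are slide 1, squares are slide 2 and the bar is the median of the array. Spots lie on both sides of 0 on all 8 arrays, and *B. clausii* replicate 1 has the widest spread, from −0.26 to 0.39.

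The arginase genes also did not pass with any strain. Arg1 had ratios of 0.15 and 0.18 with *L. acidophilus*, −0.13, 0.18 and 0.13 with *B. clausii*, and −0.16, −0.08 and 0.23 with *B. bifidum*. The 4 slide 1 arrays were all above 0 (0.13 to 0.23), and 3 of the 4 slide 2 arrays were below 0, where Arg1 was hardly above background. Within slide 1 the mean with *L. acidophilus* was 0.16 ± 0.05 (SE, n = 2, adjusted p = 0.141 by limma), which did not pass. Arg2 had ratios of −0.06 and −0.06 with *L. acidophilus*, 0.10, −0.0036 and 0.05 with *B. clausii*, and −0.09, −0.02 and −0.30 with *B. bifidum*. Arg2 was above background on 3 arrays only, both of *L. acidophilus* and *B. bifidum* replicate 3, and the ratio furthest from 0 is the one of *B. bifidum* replicate 3.

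Ass1 was the member with the steadiest direction: its ratio was below 0 on all 8 arrays, and it passed with *B. clausii*. The ratios were −0.08 and −0.23 with *L. acidophilus*, −0.64, −0.60 and −0.18 with *B. clausii*, and −0.22, −0.20 and −0.47 with *B. bifidum*. The pair of slide 2 arrays of *B. clausii* lies below all others, and replicate 3 of the same strain on slide 1 is the second closest to 0. Over all arrays Ass1 fell by 0.47 ± 0.10 (SE, n = 3, adjusted p = 0.0442 by limma), or 1.39-fold, with *B. clausii*. The means with *B. bifidum* (−0.30 ± 0.10, n = 3, adjusted p = 0.165) and *L. acidophilus* (−0.16 ± 0.13, n = 2, adjusted p = 0.826) did not pass. The direction was not the same under every scaling: with the scanner's processed signals *B. bifidum* replicate 2 was at 0.10, and with median centring the *L. acidophilus* mean was 0.40.

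Odc1 had 2 probes, and the brighter one cannot be read on slide 2. It was saturated in both channels on all 4 slide 2 arrays, so it has no measured ratio there. On slide 1 its ratios were 0.35 and 0.40 with *L. acidophilus*, 0.25 with *B. clausii* replicate 3 and 0.53 with *B. bifidum* replicate 3, all above 0. The dimmer probe was never saturated, and had ratios of 0.18 and 0.03 with *L. acidophilus*, 0.17, 0.27 and 0.34 with *B. clausii*, and −0.23, −0.05 and 0.28 with *B. bifidum*. On this probe all 3 *B. clausii* arrays lie above 0, and the *B. bifidum* arrays lie on both sides of it. The probes disagreed in size on slide 1, where the brighter one gave the higher ratio on 3 of 4 arrays.

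**Figure D2:**
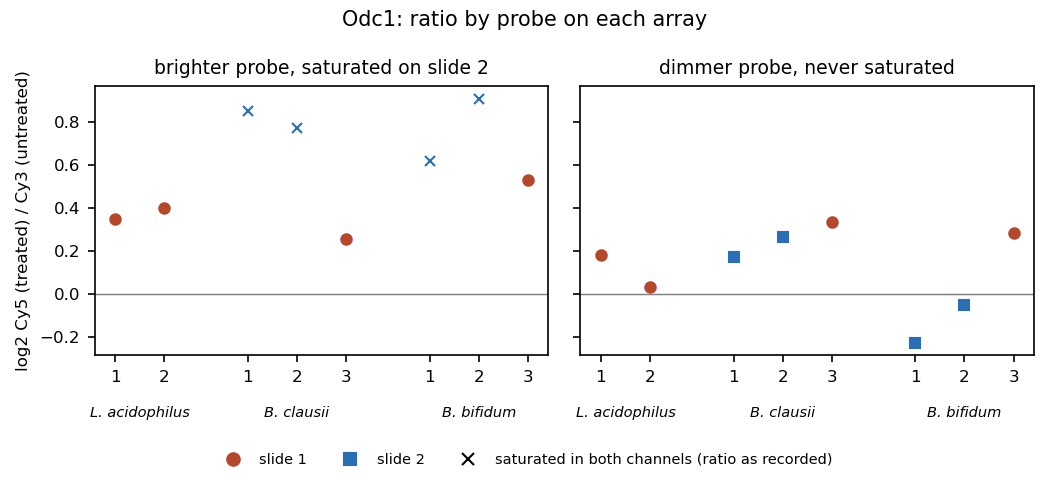
Log2 ratio of treated (Cy5) over untreated (Cy3) signal for both Odc1 probes, by strain and replicate; circles are slide 1, squares are slide 2, and crosses are arrays on which both channels were at the scanner's ceiling, so that the recorded ratio is not a measured one. The dimmer probe has the 3 *B. clausii* arrays between 0.17 and 0.34 and the *B. bifidum* arrays between −0.23 and 0.28.

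With the brighter probe limma called Odc1 with *B. clausii* (0.63 ± 0.12, SE, n = 3, adjusted p = 0.0396) and *B. bifidum* (0.69 ± 0.12, n = 3, adjusted p = 0.0330), but 2 of the 3 arrays behind each mean were saturated. A fit on 15218 genes with probes that were never saturated, added after seeing the data, gave Odc1 0.26 ± 0.10 (n = 3, adjusted p = 0.120) with *B. clausii*, 0.0018 ± 0.10 (n = 3, adjusted p = 0.995) with *B. bifidum* and 0.11 ± 0.12 (n = 2, adjusted p = 0.883) with *L. acidophilus*. No Odc1 call remained in that fit.

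**Figure D3:**
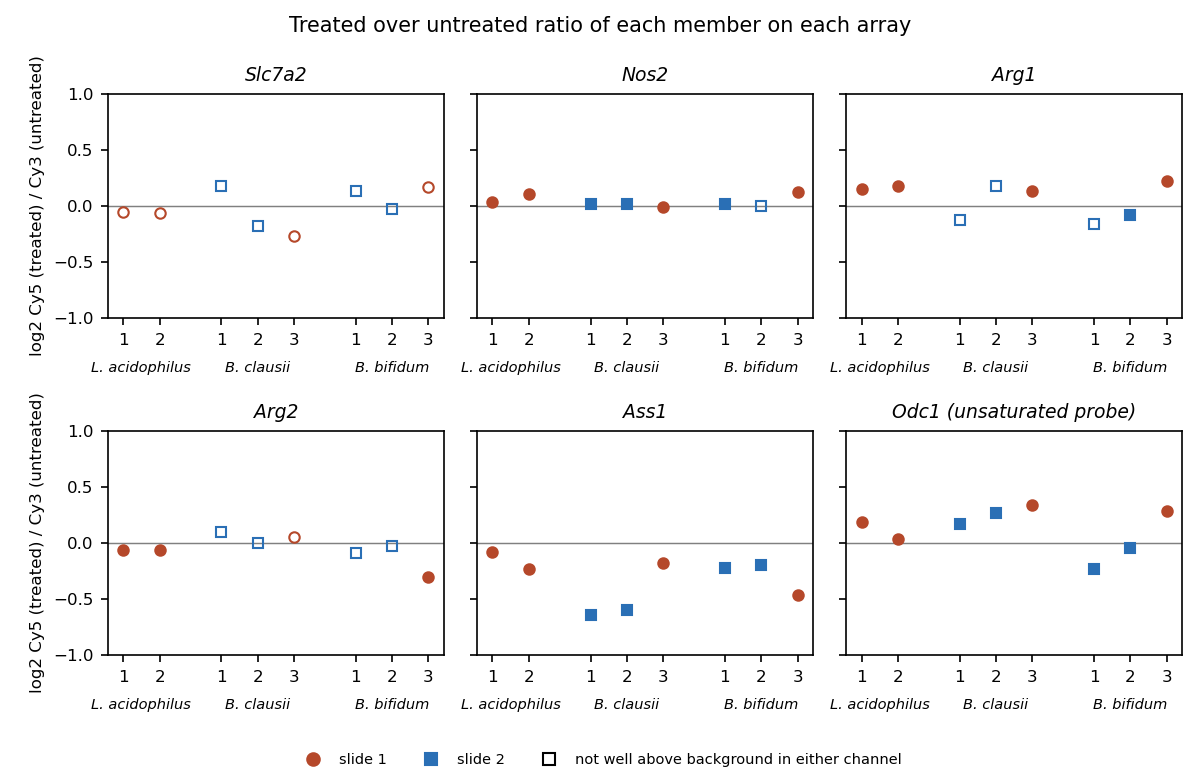
Log2 ratio of treated (Cy5) over untreated (Cy3) signal of each of the 6 genes on each array; circles are slide 1, squares are slide 2, and open symbols were not well above background in either channel. Nos2 stays within 0.13 of 0, Ass1 is below 0 on all 8 arrays, and Slc7a2 has open symbols throughout.

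Counted over all arrays, limma called 2 of 5 tested members with *B. clausii* (Ass1, and Odc1 on its saturated probe), where 4.76% of all genes were called, and 1 of 5 with *B. bifidum* (Odc1 on the same probe), where 1.72% were. With *L. acidophilus* it was 0 of 5, against 0% of all genes. There 1 member, Odc1 on the same probe, had an unadjusted p under 0.05, beside 1102 of all 15275 genes. With unsaturated probes the count was 1 of 5 with *B. clausii*, against 4.64% of all genes, and 0 of 5 with *B. bifidum*, against 1.48%. In that fit 1 member, Ass1, had an unadjusted p under 0.05 with *B. bifidum*, beside 2831 of 15218 genes. With *L. acidophilus* those probes gave 0 of 5, and 0 at an unadjusted p under 0.05. These calls rest on few arrays. Both *B. clausii* calls were lost when any 1 of 6 arrays was left out, each of the 2 *L. acidophilus* arrays and replicates 1 and 2 of both other strains, and the *B. bifidum* call when any of the same 6 was.

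With the slide as a term in the model, Ass1 had −0.46 ± 0.10 (SE, n = 3, adjusted p = 0.0157 by limma) with *B. clausii*, where 25.2% of all genes were called, and −0.28 ± 0.10 (n = 3, adjusted p = 0.109) with *B. bifidum*, where 13.9% were. The unsaturated Odc1 probe had 0.30 ± 0.07 (n = 3, adjusted p = 0.0194) with *B. clausii* and 0.05 ± 0.07 (n = 3, adjusted p = 0.735) with *B. bifidum*.

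Within slide 2, Ass1 fell with both strains on the normalised scale. It fell by 0.62 ± 0.04 (SE, n = 2, adjusted p = 0.000297 by limma), or 1.53-fold, with *B. clausii* and by 0.21 ± 0.04 (n = 2, adjusted p = 0.0139) with *B. bifidum*. With the scanner's processed signals the Ass1 ratios of these arrays were −0.29 and −0.22 with *B. clausii*, and −0.05 and 0.10 with *B. bifidum*. The size of the fall with *B. clausii*, and the fall itself with *B. bifidum*, thus depended on the scale. The unsaturated Odc1 probe rose by 0.22 ± 0.06 (n = 2, adjusted p = 0.0275) with *B. clausii* and had −0.14 ± 0.06 (n = 2, 95% interval −0.29 to 0.01, adjusted p = 0.130) with *B. bifidum*. Macrophage markers moved in the same direction with *B. clausii* on this slide: 6 of 8 fell and 0 rose (median −0.65, beside −0.01 over all genes), among them Lyz2 (−1.64 ± 0.04), Mpeg1 (−1.25 ± 0.04) and Spi1 (−0.81 ± 0.06, SE, n = 2 each). With *B. bifidum* 3 of 8 fell and 1 rose (median 0.01). With the slide as a term 5 of 8 fell with *B. clausii* (median −0.29), where 25.2% of all genes were called. Over all arrays 1 of 8 fell with *B. clausii* (median −0.40), where 4.76% of all genes were called. On slide 1, *B. clausii* replicate 3 had a median of 0.01 over these markers, so the fall was not seen there. The part of these markers in the Ass1 ratios was not tested. Calls were common on this slide: 55.9% of all genes with *B. clausii* and 38.6% with *B. bifidum*, or 55.8% and 38.4% with unsaturated probes, so 2 of 5 and 1 of 5 members called with unsaturated probes is no larger a share than that of all genes. Nos2, Arg1 and Arg2 did not pass with either strain there. Within slide 1, each of these strains had 1 array and took its spread from the *L. acidophilus* pair. Limma called 0 of 5 members with *L. acidophilus* on that slide (0% of all genes). An unadjusted p under 0.05 was found there for 2, Arg1 and Odc1, beside 3928 of all 15275 genes. Ass1 there had −0.18 (adjusted p = 0.311) with *B. clausii* replicate 3 and −0.47 (adjusted p = 0.0859) with *B. bifidum* replicate 3, which is the opposite order of size from slide 2.

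The strains were then compared with each other. Over all arrays limma called 0 of 5 members in each of the 3 pairs, with 0 members at an unadjusted p under 0.05, against 0.0262% of all genes between *B. clausii* and *B. bifidum*, 0.0131% between *L. acidophilus* and *B. clausii* and 0% between *L. acidophilus* and *B. bifidum*. For Nos2 the difference of *B. clausii* minus *B. bifidum* was −0.04 (95% interval −0.24 to 0.16), and for Arg1 it was 0.07 (−0.23 to 0.37). Intervals this wide do not show that the strains act alike. Within slide 2, with unsaturated probes, 2 of 5 members differed between *B. clausii* and *B. bifidum*, against 29.6% of all genes, and 1 of 5 against 29.5% with the brightest probes. Ass1 was lower with *B. clausii*, by −0.41 ± 0.06 (SE, n = 2 each, adjusted p = 0.00715 by limma), its ratios of −0.64 and −0.60 not overlapping with −0.22 and −0.20 for *B. bifidum*. Odc1 was higher with *B. clausii*, by 0.36 ± 0.08 (n = 2 each, 95% interval 0.14 to 0.57, adjusted p = 0.0301), with 0.17 and 0.27 against −0.23 and −0.05. On slide 1 the Ass1 order was turned round, with −0.18 for *B. clausii* replicate 3 and −0.47 for *B. bifidum* replicate 3. That order rests on 1 array of each strain, and *B. clausii* replicate 3 had the fewest probes above background of all arrays.

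The untreated Cy3 signal of Arg1, Ass1, Nos2 and Arg2 differed between the slides by far more than the signal of any strain differed from it. This did not hold for Slc7a2, which was at background. The brighter Odc1 probe was saturated in Cy3 on all 4 slide 2 arrays, so it has no measured difference between the slides. Ass1 was 9.87-fold brighter in Cy3 on slide 1 than on slide 2 and Nos2 3.85-fold. Arg1 was 31.4-fold brighter in normalised signal, but only 1 of 4 slide 2 arrays had it above background, so the size of that fold rests on the scale. Slide, scanner range and the untreated cultures cannot be told apart here, since each slide had its own range and the labels do not say which cultures were hybridised on which slide.

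Untreated Arg1 had levels of 11.85, 11.87, 10.75 and 11.99 on slide 1 (*L. acidophilus* replicates 1 and 2, *B. clausii* 3, *B. bifidum* 3), against 6.51, 6.47, 6.57 and 7.01 on slide 2 (*B. clausii* 1 and 2, *B. bifidum* 1 and 2). The slides do not overlap. The difference was 4.97 ± 0.28 (SE, n = 4 each, adjusted p = 1.23e-05 by limma) on this scale and 7.55 on that of the scanner's processed signals. In treated cells, Cy5 Arg1 was 12.00, 12.05, 10.88 and 12.21 on slide 1, against 6.38, 6.65, 6.41 and 6.93 on slide 2, where it was above background on 0 of 4 arrays, which makes it at least 35.1-fold brighter on slide 1.

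Ass1 was well above background on all arrays of both slides. Its untreated levels were 13.58, 13.76, 13.57 and 13.55 on slide 1, against 10.14, 10.27, 10.24 and 10.58 on slide 2, a difference of 3.30 ± 0.13 (SE, n = 4 each, adjusted p = 1.49e-06 by limma). The spread within a slide is small beside the gap.

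Nos2 followed the same order. Its untreated levels were 8.68, 8.75, 8.83 and 8.67 on slide 1, against 6.71, 6.79, 6.75 and 6.91 on slide 2, where 3 of 4 arrays were above background, and the difference was 1.95 ± 0.10 (SE, n = 4 each, adjusted p = 8.1e-06 by limma). Arg2 had 7.80, 7.81, 6.94 and 7.93 on slide 1, against 6.32, 6.33, 6.37 and 6.35 on slide 2, where it was above background on 0 of 4 arrays, so it was at least 2.33-fold brighter on slide 1 (adjusted p = 0.00327, n = 4 each). The unsaturated Odc1 probe differed least of the measured members, with a mean of 12.18 ± 0.29 on slide 1 and 11.52 ± 0.04 on slide 2 (SD, n = 4 each), a difference of 0.66 ± 0.15 (SE, adjusted p = 0.0133). Slc7a2 was below background on both slides and has no fold.

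**Figure D4:**
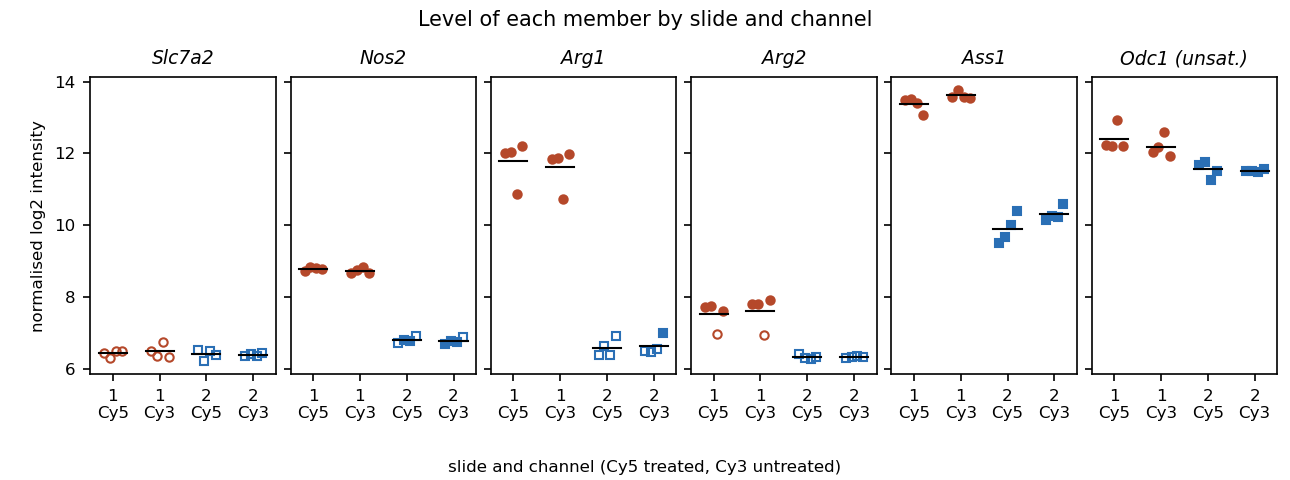
Normalised log2 intensity of each gene by slide, in treated (Cy5) and untreated (Cy3) cells; each point is 1 array, open points were not well above background and bars are means of 4 arrays. Arg1 in Cy3 lies between 10.75 and 11.99 on slide 1 and between 6.47 and 7.01 on slide 2, and in each gene the channels of a slide lie close together.

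Limma called 4 of 5 members between the slides (5 of 5 with the unsaturated Odc1 probe in place of the saturated one), all higher on slide 1. Of all genes 27.1% were called, 10.6% higher on slide 1 and 16.6% lower. Arg1 and Arg2 passed the filter only through slide 1, where they were bright. Their calls and p-values between the slides were thus partly fixed by the filter, and so was the count of members. The median difference of all genes was −0.09, and relative to it the members' differences are slightly larger. With the scanner's processed signals scaled to the 75th percentile, the differences were 7.55 for Arg1, 4.52 for Arg2, 3.49 for Ass1 and 3.37 for Nos2, so the direction held and the size of those near background on slide 2 depended on the scale.

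Markers of cell types also differed in untreated signal between the slides, and their part in the differences of Arg1, Ass1 and Nos2 was not tested. Over all genes 27.1% were called, 10.6% higher on slide 1 and 16.6% lower, with a median of −0.09. Of the neutrophil markers, 2 of 3 measured were higher on slide 1 (median of the 3, 1.35), of the osteoclast markers 3 of 6 (median 0.77) and of the macrophage markers 4 of 8, with 1 lower (median 0.31). S100a8, a calcium-binding protein gene of myeloid cells, was higher by 7.52 ± 0.47 (SE, n = 4 each, adjusted p = 1.89e-05 by limma), the osteoclast protease gene Ctsk by 3.98 ± 0.13 (adjusted p = 2.62e-06, 1 slide 1 array missing) and the macrophage gene Mpeg1 by 1.67 ± 0.09 (adjusted p = 9.29e-06). Fcgr1, an Fc receptor gene, had −3.01 ± 0.25 (adjusted p = 9.89e-05). Of the dendritic cell markers 0 of 3 were higher and 1 lower, and of the lymphocyte (4), fibroblast (4), epithelial (1) and hepatocyte (1) markers measured, 0 were called. Of the hepatocyte markers, a cell type rich in Arg1, 0 of 3 with a probe were above background on slide 1 and 1 of 3, Alb, on slide 2.

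**Figure D5:**
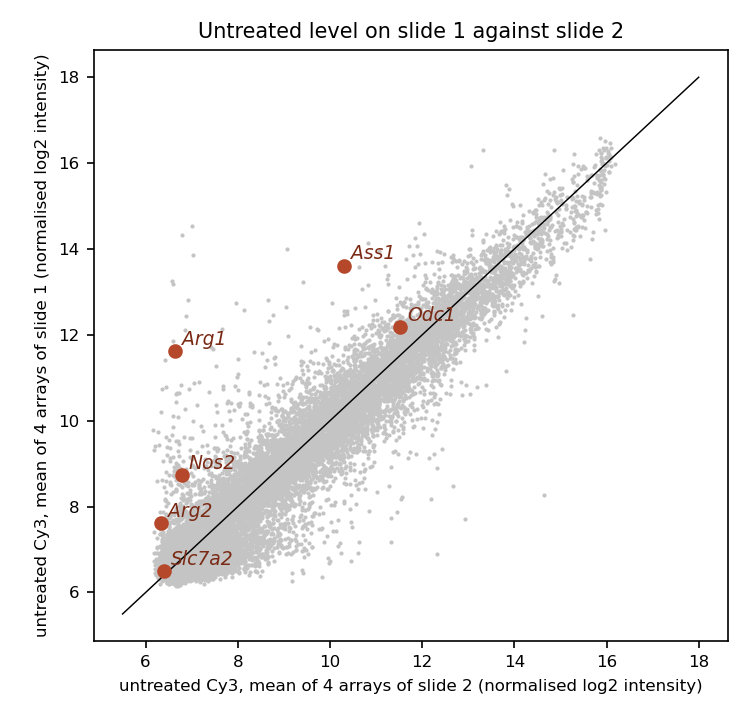
Mean untreated (Cy3) level of each gene on the 4 arrays of slide 1 (vertical) against the 4 arrays of slide 2 (horizontal), both as normalised log2 intensity; grey points are all tested genes, the line marks equal levels and the 6 genes are named, Odc1 by its unsaturated probe. Arg1 and Ass1 lie far above the line and Slc7a2 and Odc1 close to it.

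The wider pathway was followed in a list of 51 genes of arginine transport and recycling, nitric oxide synthases and their regulators, tetrahydrobiopterin synthesis, arginine and ornithine use, and polyamines, of which 47 were measured. With *B. clausii*, 2 of 47 rose and 1 fell, against 4.76% of all genes called. Paox, a polyamine oxidase, rose with ratios of 0.24, 0.40 and 0.38 (0.34 ± 0.06, SE, n = 3, adjusted p = 0.0394 by limma). Prmt1, which methylates protein arginines, rose with 0.35, 0.40 and 0.18 (adjusted p = 0.0447). Nostrin, which regulates the traffic of endothelial nitric oxide synthase, fell with −0.56, −0.70 and −0.22 (adjusted p = 0.0442). These 3 genes were named because they passed on these same arrays, so the shared sign in each is no separate result. With *B. bifidum* Nostrin was also below 0, at −0.45, −0.30 and −0.12, and Prmt1 above 0, at 0.05, 0.10 and 0.03. With the replicate number as a block, which pairs arrays of *B. clausii* and *B. bifidum* through their slide, 16 of 47 pathway genes passed with *B. clausii* and 5 with *B. bifidum*, against 28.5% and 14.9% of all genes. The *L. acidophilus* arrays share only a number with the others, and the same fit gave 3 of 47 there, against 3.31%.

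With *B. bifidum* 0 of 47 rose and 1 fell, against 1.72% of all genes. The gene was Gchfr, which encodes the feedback regulator of GTP cyclohydrolase, the first enzyme of tetrahydrobiopterin synthesis, with −0.45, −0.54 and −0.41 (−0.46 ± 0.08, SE, n = 3, adjusted p = 0.0305 by limma). The next in size did not pass: Spr, the last enzyme of that synthesis, averaged −0.40 (adjusted p = 0.122) and the amino acid transporter subunit gene Slc3a2 0.39 (adjusted p = 0.446). With *L. acidophilus* limma called 0 of 47, with 4 at an unadjusted p under 0.05, beside 1102 of all 15275 genes. The furthest from 0 were Slc25a29, a mitochondrial carrier of basic amino acids, at −0.73 and −0.07, and Paox at 0.33 and 0.40 (mean 0.36 ± 0.08, adjusted p = 0.513), a gene that was above 0 on all 8 arrays, at 0.07, 0.11 and 0.09 with *B. bifidum*. The list's median ratio was −0.01 with *L. acidophilus*, −0.04 with *B. clausii* and −0.02 with *B. bifidum*, beside 0.01, −0.01 and −0.01 over all genes.

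Within slide 2, genes of the list moved in both directions. With *B. clausii* 15 of 47 rose and 16 fell, against 55.9% of all genes called, and with *B. bifidum* 8 rose and 12 fell, against 38.6%. With *B. clausii* the smallest p-values among genes that rose were those of Pts (0.66 ± 0.05), an enzyme of tetrahydrobiopterin synthesis, Slc3a2 (0.50 ± 0.04) and Oat (0.47 ± 0.04), ornithine aminotransferase, and among genes that fell those of Slc7a6 (−0.76 ± 0.04), a basic amino acid transporter, Gamt (−0.55 ± 0.04), an enzyme of creatine synthesis, and Oaz2 (−0.58 ± 0.04), an antizyme that inhibits ornithine decarboxylase (SE, n = 2 each). With *B. bifidum* Slc3a2 (0.84 ± 0.04), Oat (0.32 ± 0.04) and the dihydropteridine reductase gene Qdpr (0.36 ± 0.05) rose, and Gchfr (−0.49 ± 0.05), Oaz2 (−0.47 ± 0.04) and Spr (−0.48 ± 0.05) fell. All these pass limma at an adjusted p of 0.00507 or less.

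Some of these genes differed between the strains by a direct test within slide 2, where 17 of 47 were called, against 29.5% of all genes. Spr had 0.47 and 0.47 with *B. clausii*, against −0.41 and −0.55 with *B. bifidum*, a difference of 0.95 ± 0.07 (SE, n = 2 each, adjusted p = 0.00145 by limma). Pts differed by 0.64 ± 0.06 (adjusted p = 0.00241). On slide 1 Spr was below 0 with both, at −0.14 for *B. clausii* replicate 3 and −0.25 for *B. bifidum* replicate 3, and Slc3a2, which rose with both strains on slide 2, was also below 0, at −0.19 and −0.51. By class within slide 2, polyamine genes had 6 rises and 5 falls among 14 measured with *B. clausii* and 4 and 3 with *B. bifidum*. Tetrahydrobiopterin genes had 2 and 3 among 6 with *B. clausii*, and 1 and 2 with *B. bifidum*. The share of all genes called was 55.9% with *B. clausii* and 38.6% with *B. bifidum*.

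Between the slides, 6 of 47 pathway genes were higher in untreated cells of slide 1 and 5 lower, against 27.1% of all genes called. Ddah2, which breaks down methylated arginines that inhibit nitric oxide synthase, was higher by 2.19 ± 0.16 (SE, n = 4 each, adjusted p = 5.4e-05 by limma), the arginine exporter gene Slc7a7 by 1.12 ± 0.16 (adjusted p = 0.00165) and Prodh, proline dehydrogenase, by 0.66 ± 0.13 (adjusted p = 0.00804). The arginine importer gene Slc7a1 had −0.73 ± 0.14 (adjusted p = 0.0068), Gucy1a1, a subunit of the nitric oxide receptor guanylate cyclase, −0.86 ± 0.19 (adjusted p = 0.0111) and the arginine methyltransferase gene Prmt5 −0.47 ± 0.11 (adjusted p = 0.0134). On slide 1 the Gucy1a1 levels were 6.50, 6.53, 6.27 and 6.47, near that of Slc7a2 at background (mean 6.49). The size of its difference thus rests on the scale. Its p-value is partly fixed by the filter if it passed that through slide 2 alone. The list's median was 0.10, beside −0.09 over all genes.

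Other genes of alternative activation, the programme for which Arg1 is the usual marker in mice, were followed in a list of 13, of which 9 were measured. Limma called 0 of 9 with each strain over all arrays, against 0%, 4.76% and 1.72% of all genes with *L. acidophilus*, *B. clausii* and *B. bifidum*. An unadjusted p under 0.05 was found in 0, 5 and 2 of the 9, beside 1102, 4684 and 2886 of all 15275 genes. Within slide 2, 3 rose and 4 fell with *B. clausii*, against 55.9% of all genes called, and 2 rose and 3 fell with *B. bifidum*, against 38.6%. Egr2, a transcription factor, rose by 0.77 ± 0.06 with *B. clausii* (SE, n = 2, adjusted p = 0.000383) and fell by 0.37 ± 0.06 with *B. bifidum* (n = 2, adjusted p = 0.00602). The interleukin 4 receptor gene Il4ra moved the other way, at −0.47 ± 0.07 with *B. clausii* (adjusted p = 0.00379) and 0.38 ± 0.07 with *B. bifidum* (adjusted p = 0.0109). In untreated cells, Egr2 (1.60 ± 0.21, adjusted p = 0.000951) and the lectin gene Clec10a (1.27 ± 0.12, adjusted p = 0.000226) were higher on slide 1, as Arg1 was, and the transcription factor gene Klf4 (−1.52 ± 0.12, adjusted p = 7.51e-05) and Retnla (−0.63 ± 0.14, adjusted p = 0.0112), a secreted marker of alternative activation, were lower (SE, n = 4 each). Of the 9 genes, 2 thus had the direction of Arg1 between the slides, 2 the opposite one and 5 did not pass, against 27.1% of all genes called.

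The genes whose ratios followed Ass1 most closely over the 8 arrays, of 14333 others, were Tmem147 (r = 0.983), Stx17 (0.982) and Ccl6 (0.981). The arrays share slides, so these values are a description only. No such genes are named for Odc1, whose brighter probe was saturated on slide 2, or for Nos2, Arg1 and Arg2, whose ratios on slide 2 lay at or near background.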

How the data were processed

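The deposited scanner files hold each spot's median signal and background as linear intensity, with the software's processed intensity and a log10 ratio (red, Cy5, over green, Cy3), per the file headers. The headers name Agilent Feature Extraction 10.7.3.1, and version 10.5.1.1 stands in the submitters' processing notes. The authors' deposited value table equalled that log10 ratio to within 0.005 on every array.

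With limma 3.58.1 in R 4.3.3, median signals were corrected by normexp (offset 50) and log2 ratios were normalised by loess within arrays; Aquantile was added for levels. Outlier spots were removed, saturated spots were kept, and repeated spots were averaged. A probe entered the tests if either channel was well above background on 2 or more arrays, which left 28566 of 41174. Names came from the files' transcript accessions through RefSeq, and a gene was its brightest kept probe. lmFit and eBayes gave a mean per strain over all 8 arrays, with Benjamini-Hochberg adjustment over 15275 genes and a threshold of 0.05. Levels between slides were tested on Cy3, 4 arrays against 4. A fold against a group below background on all its arrays is a bound, computed from the lowest signal among probes well above background.

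The members and gene lists were chosen with earlier results of these data known. Pathway genes were named where they passed with up to 3 smallest p-values per direction, or as the 2 furthest from 0 where fewer than 2 passed; genes of the alternative activation list were named after their values were seen. Same-numbered arrays of *B. clausii* and *B. bifidum*, which share a slide, deviated together (r = 0.407, 0.298 and 0.462), so the numbers pair those strains through the slide. Those of *L. acidophilus* did not (r = −0.09 to −0.06). The steps were tested on simulated data. The number of arrays limits the precision. Fits within a slide, with the slide or replicate as a block, without 1 array and with other normalisations, filters and probe rules were tried.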

Additional observations from a re-analysis of the deposited data

Results flagged for a closer look

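Among the 4 arrays of slide 1, *B. clausii* replicate 3 stood apart in several levels. Its gap to the nearest array, as a share of the range of the 4, was 0.890 for Arg1 in Cy3 and 0.842 in Cy5, 0.873 for Arg2 in Cy3 and 0.844 in Cy5, and 0.925 for the brighter Odc1 probe in Cy5. This array had the fewest probes above background, and the part of that in these values was not tested. For Ass1 in Cy3, *L. acidophilus* replicate 2 stood apart with a share of 0.854. Chance alone singles out about 1 in 20 such groups.

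Within slide 2 the strains differed by a direct test in Ass1, at −0.41 for *B. clausii* minus *B. bifidum*, and in the unsaturated Odc1 probe, at 0.36. The slide 1 arrays, 1 for each strain, had Ass1 in the opposite order.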

How the results depend on the processing

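Main counts of members called were 0 with *L. acidophilus*, 2 with *B. clausii*, 1 with *B. bifidum* and 4 between slides, and of pathway genes 0, 3, 1 and 11. With both *B. clausii* and *B. bifidum*, members fell to 0 under the scanner's processed signals, the deposited value table, median centring, an intensity trend with robust eBayes, only the arrays of the strains compared, and slide 1 alone, and pathway genes to 0 under all of these; calls over all genes there were 0% to 0.249% with *B. clausii* and 0% to 0.046% with *B. bifidum*, so few of any genes were called. Without background correction members fell to 0 with both and pathway genes to 1 with *B. clausii*. Under the mean of kept probes, *B. bifidum* had 0 members. Probes well above background on all arrays gave 6 pathway genes with *B. clausii*, against 12.9% of all genes. Between slides they gave 1 of the 2 members left and 6 pathway genes, against 27.3%. The slide as a block gave 1 member (Odc1 on its saturated probe) and 1 pathway gene with *L. acidophilus*, against 2.75% of all genes. With the unsaturated probe it gave 0 members and −0.03 for Odc1. *L. acidophilus* had arrays on slide 1 only, so its estimates there rest on the slide difference of the other strains. They are not its measured ratios, which were 0.18 and 0.03 on that probe. The slide as a block gave 16 and 3 pathway genes with *B. clausii* and *B. bifidum*, against 25.2% and 13.9%. Slide 2 alone gave 31 and 20 pathway genes, 2 members with *B. bifidum* and 1 between these strains. Of all genes, 55.9% were called there with *B. clausii*, 38.6% with *B. bifidum* and 29.5% between these strains. Probes never saturated, chosen after seeing the data, gave 1 member with *B. clausii* and 0 with *B. bifidum*; with the slide as a block 0 members with *B. bifidum* and 16 and 3 pathway genes; within slide 2, 31 and 20 pathway genes and 2 members between the strains, and there Odc1 turned to −0.14 with *B. bifidum* and to 0.36 for *B. clausii* minus *B. bifidum*, on another probe that also disagreed with the brighter one on slide 1. The replicate block, a pairing through the slide for *B. clausii* and *B. bifidum* but only a shared number for *L. acidophilus*, gave 16, 5 and 3 pathway genes with these and changed no count of members; Ass1 with *B. clausii* had an adjusted p of 0.0188. Leaving out 1 array gave 0 to 2 members with *B. clausii* (2 without its replicate 3 or without *B. bifidum* replicate 3), 0 to 2 with *B. bifidum* (2 without *B. clausii* replicate 3, 1 without *B. bifidum* replicate 3), 0 to 1 for *L. acidophilus* minus *B. clausii* (Ass1, without *B. clausii* replicate 3), and 0 to 23, 0 to 5 and 6 to 31 pathway genes with *B. clausii*, with *B. bifidum* and between slides (23 and 31 without *B. clausii* replicate 3, 5 without *B. bifidum* replicate 3); the other counts were the same in all 8. Calls over all genes swung as well. Without *B. clausii* replicate 3 they were 35.9% with *B. clausii* and 52.2% between slides. Without *B. bifidum* replicate 3 they were 13.7% with *B. bifidum*. Without *L. acidophilus* replicate 1 they were 0.0393% with *B. clausii* and 0.151% with *B. bifidum*. Without *L. acidophilus* replicate 2 they were 20.1% between slides. Causes were not tested except where stated. Over the settings that kept them, untreated Arg1, Arg2, Ass1 and Nos2 stayed higher on slide 1 and past the threshold, while Nos2, Arg1 and Arg2 passed with no strain in any setting run. Signals near background limit Nos2 and Arg1 on slide 2, Arg2 on 5 arrays and Slc7a2 on all. Arg1 and Arg2 passed the main filter through slide 1 alone, which partly fixes their calls between slides.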
